A study of Mus musculus with 32 samples.

Results

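Kcnq1, Peg10, Plagl1 and Usp29 are 4 imprinted genes with chromatin RNA listed as changed between mouse embryonic stem cells with and without 3 linker histone H1 genes. They were selected on that listing, so their log2 values describe the selection and are given with no test. In all, 13 of the 5723 transcripts in the authors' deposited table carry their names: 7 for Kcnq1, 3 for Peg10, 2 for Usp29 and 1 for Plagl1. They stand for 4 of the 3470 gene names in that table. R-loop peaks on the same genes were not used to select them and are described after the RNA.

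Imprinted genes are read mainly from one parental copy, because a control region carries DNA methylation on one parental chromosome only. Kcnq1 encodes a voltage-gated potassium channel subunit. From within it starts Kcnq1ot1, a long antisense RNA made from the paternal chromosome, which is known for silencing neighbouring genes on that chromosome. Peg10 is a paternally expressed gene derived from a retrotransposon and is needed for the placenta. Plagl1 encodes a zinc finger transcription factor and is expressed from the paternal copy. Usp29 belongs to the family of ubiquitin-specific peptidases. It starts back to back with Peg3, a zinc finger gene, and both are paternally expressed.

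The 32 samples of the series are mouse embryonic stem cells, either wild type (WT) or H1-TKO, grown in serum with LIF, the factor that keeps such cells undifferentiated. TKO stands for the triple knockout of histone H1. The labels do not name the clone, the parental strains or the sex of either line, so parental copies cannot be told apart. Chromatin RNA (cheRNA) is RNA left in the pellet after nuclei are lysed with urea and detergent, and it was sequenced with a stranded kit from 3 samples per genotype. MapR maps R-loops, stretches where RNA is paired to 1 DNA strand and the other is left single, by exposing cells to GST-RH-MNase, a fusion of the hybrid-binding RNase H part with micrococcal nuclease. There were 2 such libraries per genotype and 1 control library per genotype exposed to GST-MNase, the nuclease without that part. Nothing in the labels ties a replicate to a culture of its own. The p-values therefore cover only the spread among these libraries, and part or all of it may be technical.

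The deposited table gives 1 log2 fold change per transcript and no value per sample, and its direction is not stated. As deposited, the gene transcripts of Hist1h1c, Hist1h1d and Hist1h1e, known as the H1 genes removed in such a triple knockout, stood at 3.61, 5.02 and 4.83. The sign of every value was therefore turned so that these 3 genes read -3.61, -5.02 and -4.83 in TKO over WT, which is an inference. Every direction of RNA below rests on it. The smallest absolute log2 in the table is 1.00, so transcripts that changed less are not in it, and a gene without a listed transcript is not shown to be unchanged.

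Sequence around the 4 genes is printed first, because the R-loop peaks at these genes lie on stretches of very different base composition. The gaps between Sgce and Peg10 and between Peg3 and Usp29 carry no peak and are printed as DNA between opposed starts. All stretches are from the RefSeq GRCm38.p6 assembly, read on the plus strand, 5′ to 3′. In every stretch capitals mark TGCCGC, the letters bound by ZFP57 when methylated, or AAGATGGC, a YY1 motif, on either strand.

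The first, chr6:4747208-4747305, is the whole gap between the opposed starts of Sgce and Peg10.
Sgce-Peg10 gap: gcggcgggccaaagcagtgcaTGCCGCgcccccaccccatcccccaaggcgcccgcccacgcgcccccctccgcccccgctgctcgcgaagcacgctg
The next pair shows the upstream start of Plagl1, at chr10:13061048-13061257, where 3 libraries had a peak, and the DNA just before its main start, at chr10:13090558-13090787, upstream of the listed RNA.
Plagl1 upstream start: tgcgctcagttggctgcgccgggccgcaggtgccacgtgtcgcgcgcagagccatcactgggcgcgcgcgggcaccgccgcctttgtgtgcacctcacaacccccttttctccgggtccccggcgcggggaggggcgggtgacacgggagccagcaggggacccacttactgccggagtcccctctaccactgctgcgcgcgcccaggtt
Plagl1 main start: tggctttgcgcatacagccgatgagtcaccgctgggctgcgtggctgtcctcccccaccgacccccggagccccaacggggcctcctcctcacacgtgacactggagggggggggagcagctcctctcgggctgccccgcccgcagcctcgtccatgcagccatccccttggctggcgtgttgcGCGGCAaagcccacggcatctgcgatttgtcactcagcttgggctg
The stretch at chr7:6728390-6728689 lies in the part common to the WT peaks in the first intron of Peg3, and chr7:6730463-6730558 lies between the starts of Peg3 and Usp29.
Peg3 intron peak: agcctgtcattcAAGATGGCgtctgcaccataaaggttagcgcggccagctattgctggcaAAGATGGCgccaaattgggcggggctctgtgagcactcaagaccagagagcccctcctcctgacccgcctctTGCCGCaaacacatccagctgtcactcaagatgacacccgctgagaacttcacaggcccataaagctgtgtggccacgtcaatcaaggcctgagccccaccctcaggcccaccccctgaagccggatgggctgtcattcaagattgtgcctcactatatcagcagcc
Peg3-Usp29 gap: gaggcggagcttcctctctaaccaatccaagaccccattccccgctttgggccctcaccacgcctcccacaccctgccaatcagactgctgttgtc
The last, chr7:143124170-143124469, lies in the first intron of Kcnq1, where the first replicate of each genotype had a peak.
Kcnq1 intron peak: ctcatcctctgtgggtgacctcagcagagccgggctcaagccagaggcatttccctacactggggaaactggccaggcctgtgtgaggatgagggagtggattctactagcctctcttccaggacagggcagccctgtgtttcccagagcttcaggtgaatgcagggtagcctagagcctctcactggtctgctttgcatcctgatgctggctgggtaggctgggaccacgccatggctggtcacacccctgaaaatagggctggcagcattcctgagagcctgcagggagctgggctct

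These stretches differed in kind. The Plagl1 upstream start held 24 CpG in 210 bp at 72.4% G and C, and the Sgce-Peg10 gap 13 CpG in 98 bp at 79.6%. The Kcnq1 intron peak held 2 CpG in 300 bp. The Peg3 intron peak held AAGATGGC at 2 places and TGCCGC at 1, and the gap between Peg3 and Usp29 held neither. One TGCCGC match each stood in the Sgce-Peg10 gap and before the main start of Plagl1. A match is a description of letters and not a bound site.

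Searches of both strands of other windows give the background. Of 60653 windows of 300 bp centred on R-loop peak summits, 14.6% held TGCCGC, 11.8% held AAGATGGC and 92.4% held a GGGG run. Of 32851 RefSeq promoters of 300 bp, 11.6%, 2.75% and 86.4% did. The promoter table matched Plagl1, with 26 CpG, and Usp29, with 17 CpG, against a median of 7 over all promoters. Kcnq1 and Peg10 had no entry there.

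Chromatin RNA was listed lower in TKO for 12 of the 13 transcripts and higher for 1, the second Usp29 transcript. Of all listed transcripts 39.9% were lower, among transcripts of the gene class 55.0% and among intergenic ones 26.0%. Since the genes were selected on these values, nothing is read from the difference. Of the 13, 11 are of the gene class and 2 intergenic, and all 13 lie on the strand of the gene they are named for. Their median was a log2 of -2.50, beside 1.38 for all listed transcripts. Among lower gene transcripts of the table the median was -1.66.

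**Figure D1:**
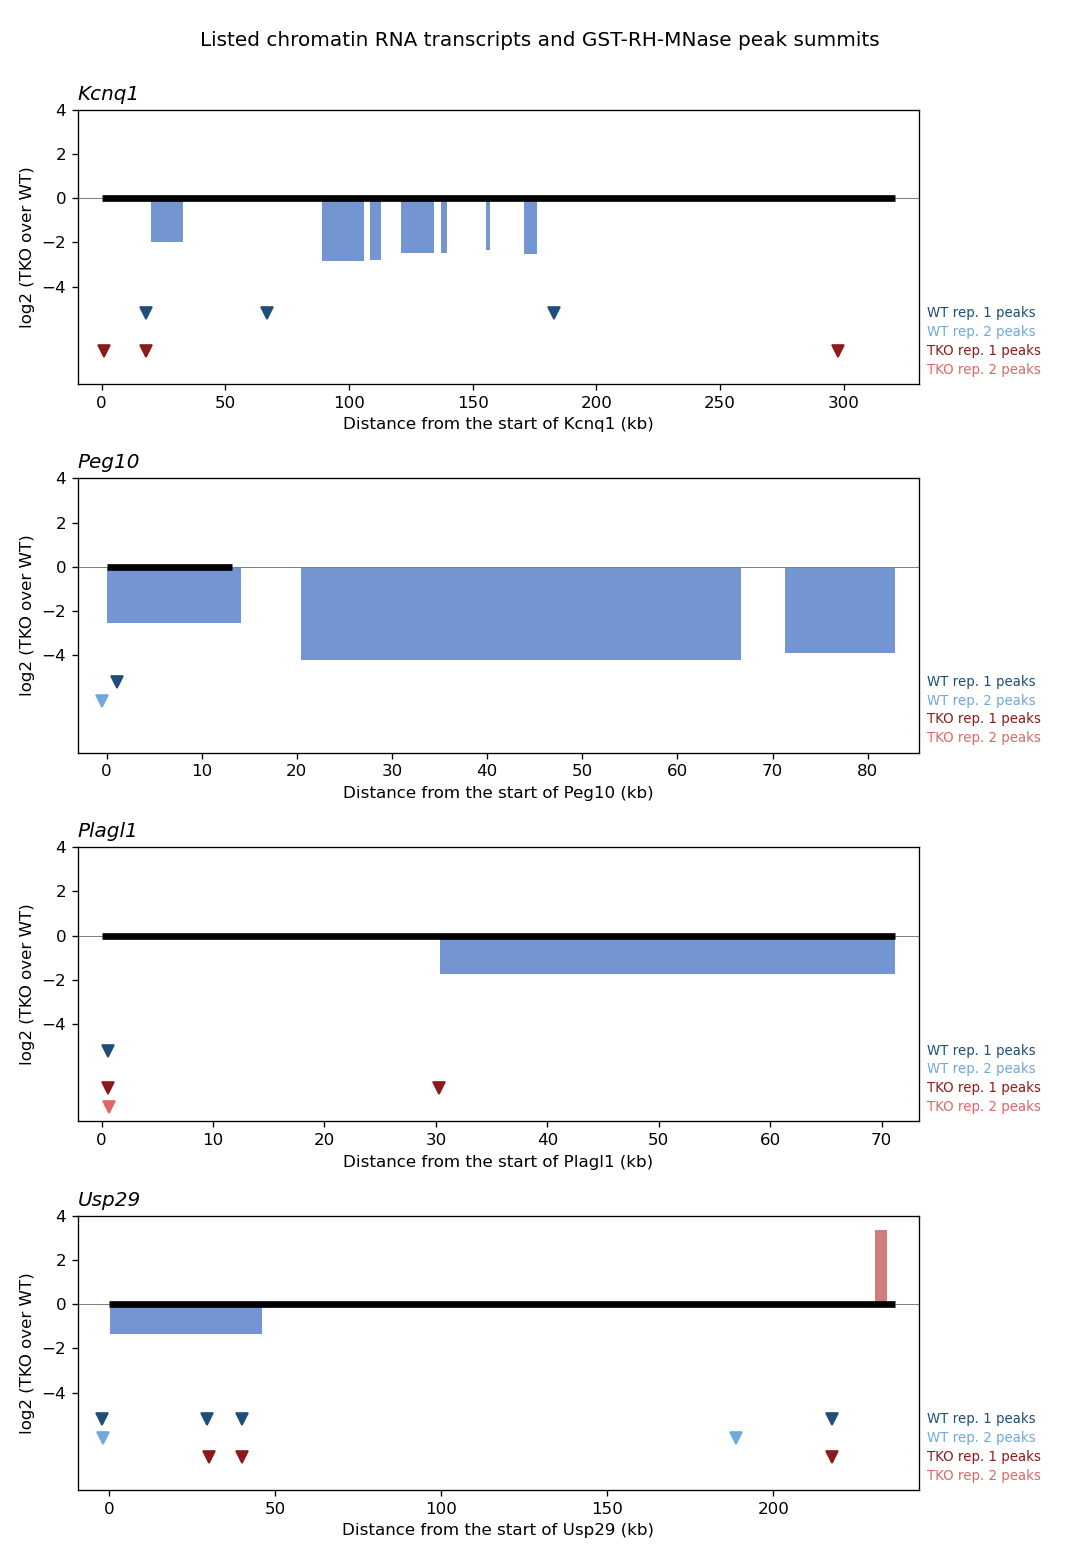
Listed chromatin RNA transcripts of Kcnq1, Peg10, Plagl1 and Usp29 by distance from the gene's start in kb (x axis); each coloured block spans 1 transcript and its height is the authors' log2, read as TKO over WT (blue lower, red higher). The black bar is the gene and triangles mark summits of GST-RH-MNase peaks by library in the 14 regions described: 7 lower blocks stand in Kcnq1, 2 of the 3 Peg10 blocks lie past the gene, and the Usp29 blocks differ in sign.

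Kcnq1 (ENSMUSG00000009545, chr7:143106362-143427042, plus strand, 320.7 kb) was listed in 7 separate pieces, all lower, in the authors' deposited table. From the gene's start onward their log2 values were -1.99, -2.84, -2.81, -2.46, -2.50, -2.35 and -2.53, or between 3.96-fold and 7.16-fold lower. The 7 pieces thus lay within less than 1 log2 unit of each other, and the piece nearest the start had the smallest value. Of all lower gene transcripts in the table, 35.8% lay further from 0 than the first piece and 10.8% further than the second.

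The pieces of Kcnq1 were intronic and clustered in the middle of the gene. None of the 7 overlapped a Kcnq1 exon of any annotated transcript. In the longest coding transcript, which has 16 exons, the first piece lay in intron 1, the next 4 in intron 10 and the last 2 in intron 11. They ran from 1.99 to 16.7 kb in width, summed to 57.5 kb or 17.9% of the gene, and were separated by 2.66 to 56.2 kb. The first began 19.9 kb from the start of Kcnq1 and the last ended 176.0 kb from it. The 144.7 kb after that held no listed piece. The first piece also overlapped the annotated genes Gm37235, on the plus strand, and Gm28821, on the minus strand. RNA of Gm37235 and of Kcnq1 cannot be told apart where they overlap.

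Most of these pieces sat opposite Kcnq1ot1. That antisense RNA is annotated on the minus strand at chr7:143203458-143296549, over 93.1 kb and from 97.1 to 190.2 kb along Kcnq1. Of the 7 pieces, 6 overlapped it and 5 lay wholly inside it, with a median log2 of -2.51 over the 6. The last piece ended 14.2 kb short of the start of Kcnq1ot1. All 7 were listed on the plus strand, the strand of Kcnq1, and no transcript was listed on the minus strand over the gene. The library kit was stranded, but the sources used here do not give the strand setting of the authors' counting.

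The listed neighbours of Kcnq1 were few. Within 1 Mb there were 4 other listed transcripts, 3 lower and 1 higher. The tetraspanin genes Tspan32, at -2.30, and Cd81, at -1.24 with an opposite-strand transcript at its promoter at -1.03, were lower upstream of Kcnq1. Phlda2, a maternally expressed gene that restrains placental growth, was higher at 1.31 on the far side. Of 16 genes of the imprinted domain, 3 had a lower gene transcript (Kcnq1, Tspan32, Cd81) and 1 a higher one (Phlda2). Kcnq1 itself is in the count because it was selected on its listing. Of 21924 protein-coding gene names in GENCODE, 4.80% had a lower gene transcript and 4.14% a higher one. Neither Kcnq1ot1 nor Cdkn1c, the cell-cycle inhibitor gene 31.3 kb downstream of Kcnq1, had a listed gene transcript. On the whole of chromosome 7, 41.2% of 337 listed transcripts were lower.

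Peg10 (ENSMUSG00000092035, chr6:4747306-4760517, plus strand, 13.2 kb) had 1 gene transcript and 2 intergenic ones, all lower. The gene transcript, chr6:4747378-4761424, had a log2 of -2.52 (5.74-fold lower). It covered the gene from 72 bp after its start to 907 bp past its end and was 46.9% exonic. The intergenic transcripts stood further from 0, at -4.23 (18.8-fold lower) and -3.90 (15.0-fold lower). Of the 503 lower intergenic transcripts in the table, 5.96% and 8.55% stood further out.

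The intergenic transcripts followed the gene on its own strand. The first, chr6:4767713-4813991, was 46.3 kb long and began 6.29 kb after the gene transcript ended. Though classed as intergenic, it overlaps the annotated Gm44121 on its own strand and Gm20714 on the other. The second, chr6:4818632-4830168, was 11.5 kb long and began 4.64 kb after the first. One more, named for the next gene, Ppp1r9a, at chr6:4833181-4837707, was also on the plus strand and lower, at -5.65. Between the end of Peg10 and the start of Ppp1r9a lie 142.4 kb, and these 3 transcripts covered 43.8% of it. No minus-strand transcript lay wholly in between, and the one at the Ppp1r9a promoter reaches into that stretch.

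Around Peg10 the listed transcripts were lower throughout. All 12 others within 1 Mb were lower, where 45.2% of the 509 listed on chromosome 6 were. Sgce, the sarcoglycan gene that shares the Peg10 promoter region in the opposite direction, stood at -1.37. Ppp1r9a, which encodes the actin-binding protein neurabin, stood at -2.08 over 270.7 kb, with an antisense transcript inside it at -2.83 and an opposite-strand one at its promoter at -2.15. The paraoxonase genes Pon3 and Pon2 stood at -1.67 and -1.78, with an intergenic transcript named for Pon3 at -2.12. Dync1i1, a dynein chain gene near the edge of that span, had gene transcripts at -2.68, -4.07 and -2.60 and a transcript at its 5′ side at -6.48. Of 13 genes of the imprinted domain, 5 had a lower gene transcript (Sgce, Peg10, Ppp1r9a, Pon2, Pon3) and 0 a higher one. Of all protein-coding names, 4.80% had a lower and 4.14% a higher one. Peg10 itself is in the count because it was selected on its listing.

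**Figure D2:**
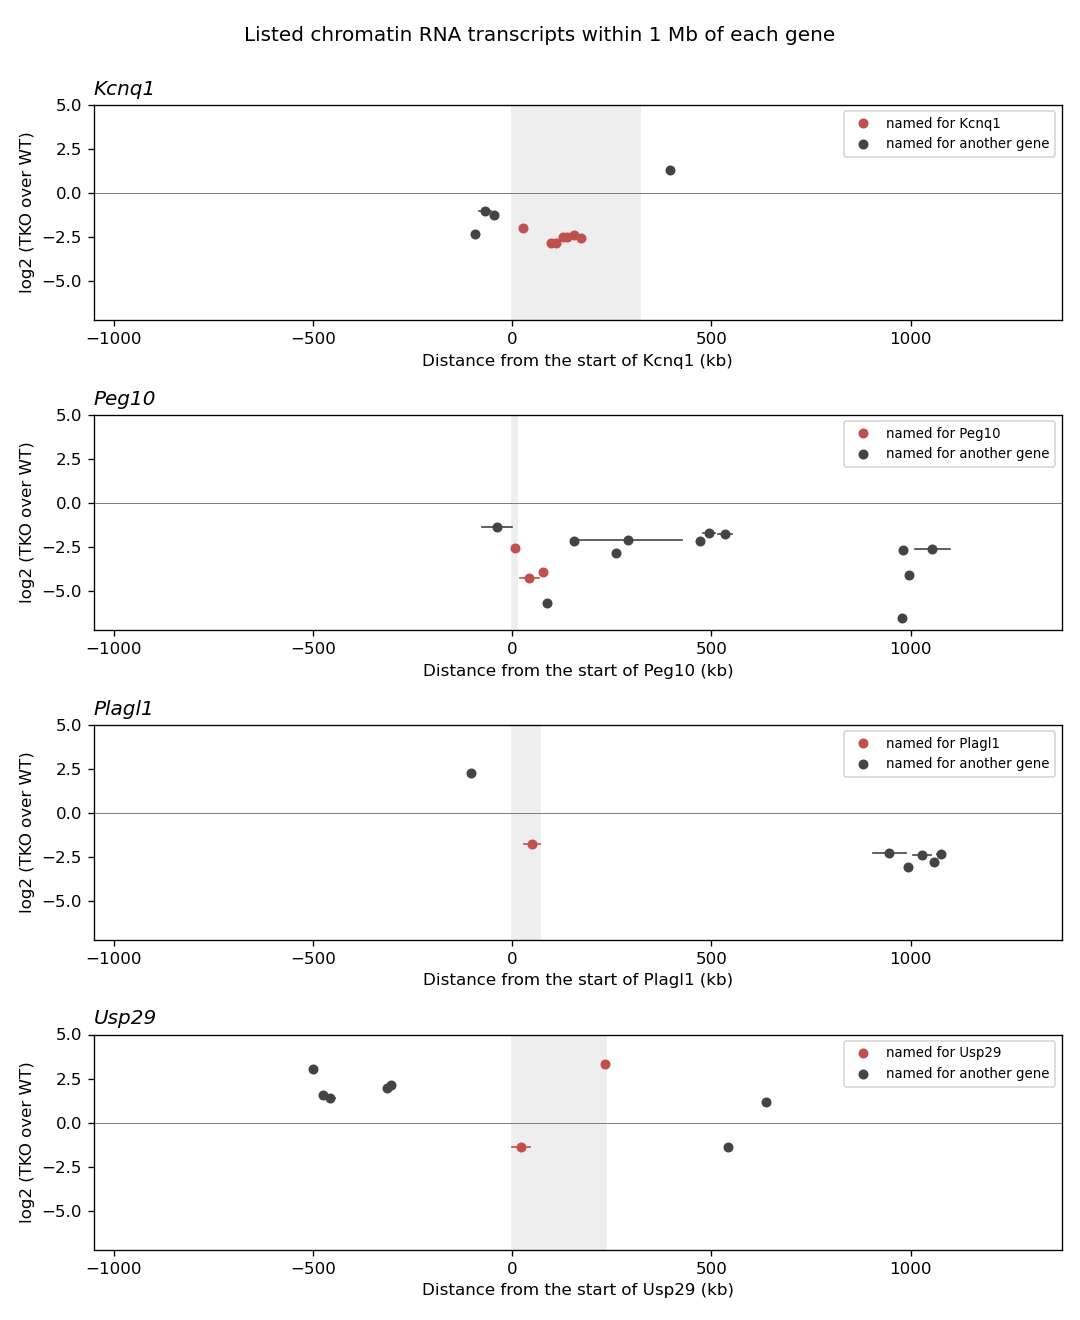
Listed chromatin RNA transcripts within 1 Mb of each gene by distance from its start in kb (x axis) and the authors' log2, read as TKO over WT (y axis); points mark the middle and lines the width, red for transcripts named for the gene and dark grey for others, with the gene shaded. All 12 others around Peg10 are below 0, while 6 of 7 around Usp29 are above it. Of all transcripts listed on chromosomes 6 and 7, 45.2% and 41.2% are below 0.

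Plagl1 (ENSMUSG00000019817, chr10:13060504-13131694, plus strand, 71.2 kb) had 1 listed transcript, at a log2 of -1.76 (3.38-fold lower). It ran over chr10:13090838-13131693, 40.9 kb, and was 17.5% exonic. Of lower gene transcripts, 45.3% stood further from 0, so this one was near their median. It began 30.3 kb after the GENCODE start of the gene and within 6 bp of the RefSeq start, 13090832. No transcript was listed over the part of Plagl1 before that. RefSeq places Hymai, a non-coding RNA of the same locus, at chr10:13090845-13095900. Its strand was not read here, and RNA of Hymai and of Plagl1 was not told apart there.

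The surroundings of Plagl1 held 6 other listed transcripts. Stx11, a syntaxin gene upstream, was higher at 2.26. All 5 lower ones belonged to Hivep2, a zinc finger gene at the far edge of that span, at -2.27 to -3.08. Of the 294 transcripts listed on chromosome 10, 40.1% were lower. Of the 7 domain genes found, Plagl1 alone had a listed gene transcript.

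Usp29 (ENSMUSG00000051527, chr7:6730578-6967219, plus strand, 236.6 kb) was listed in both directions. Its first transcript, chr7:6730674-6776644, spanned 46.0 kb from 96 bp after the gene's start, at -1.35 (2.55-fold lower). Its second, chr7:6961172-6964962, spanned 3.79 kb near the gene's far end, at 3.35 (10.2-fold higher). They lay 184.5 kb apart, with no listed piece between them.

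The Usp29 transcripts also differed in content. The lower one was 23.4% exonic and held 0 bp of annotated coding sequence. It overlaps Gm27675, Gm44862 and Gm44863, annotated on the same strand, so their RNA and that of Usp29 cannot be told apart there. The higher one was 100% exonic and held 2595 bp of coding sequence. It lies opposite Zim3, annotated as antisense on the minus strand at chr7:6955685-6977420, and no Zim3 transcript was listed. Among lower gene transcripts, 68.3% stood further from 0 than the first piece, and among higher ones 11.8% stood further than the second. No listed RNA joined the 2 pieces, and the table does not say whether they come from 1 molecule.

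Neighbours of Usp29 were mostly higher. Of 7 other listed transcripts within 1 Mb, 6 were higher: Zscan5b, a zinc finger gene, at 3.07, Smim17 at 1.96 and 2.14, Gm6792 at 1.39 with an antisense transcript at 1.59, and an intergenic one named for Vmn2r31 at 1.18. The lower one was intergenic and named for Clcn4, at -1.38. Of the 337 transcripts listed on chromosome 7, 41.2% were lower and the rest higher. Of the 7 domain genes found, Usp29 alone had a listed gene transcript, and Peg3 had none.

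Imprinted genes as a class were listed in both directions. Of 81 genes found, 11 had a lower gene transcript and 7 a higher one, Usp29 counting in both, beside the 4.80% and 4.14% of protein-coding names. The list was not tested. Leaving out the 4 genes, 7 of 77 had a lower one and 6 a higher one. The lower ones were Ppp1r9a, Pon2, Pon3, Sgce and Cd81, described above, with Gpr1 at -2.50 and Herc3 at -1.18. The higher ones were Phlda2, Nnat at 1.03, Sfmbt2 at 1.70 and 1.78, Smoc1 at 2.57, Gab1 at 2.66 and Peg12 at 2.72. Thus 4 of the 7 lower ones are neighbours of Peg10. By name alone, 6 of all 81 had a lower and 8 a higher transcript of another class, beside 2.24% and 6.90% of protein-coding names. Peg10, selected on its listing, is among the 6. With transcripts of any class or strand named for or lying over a gene, 16 of all 81 had a lower and 15 a higher one, the 4 genes included.

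**Figure D3:**
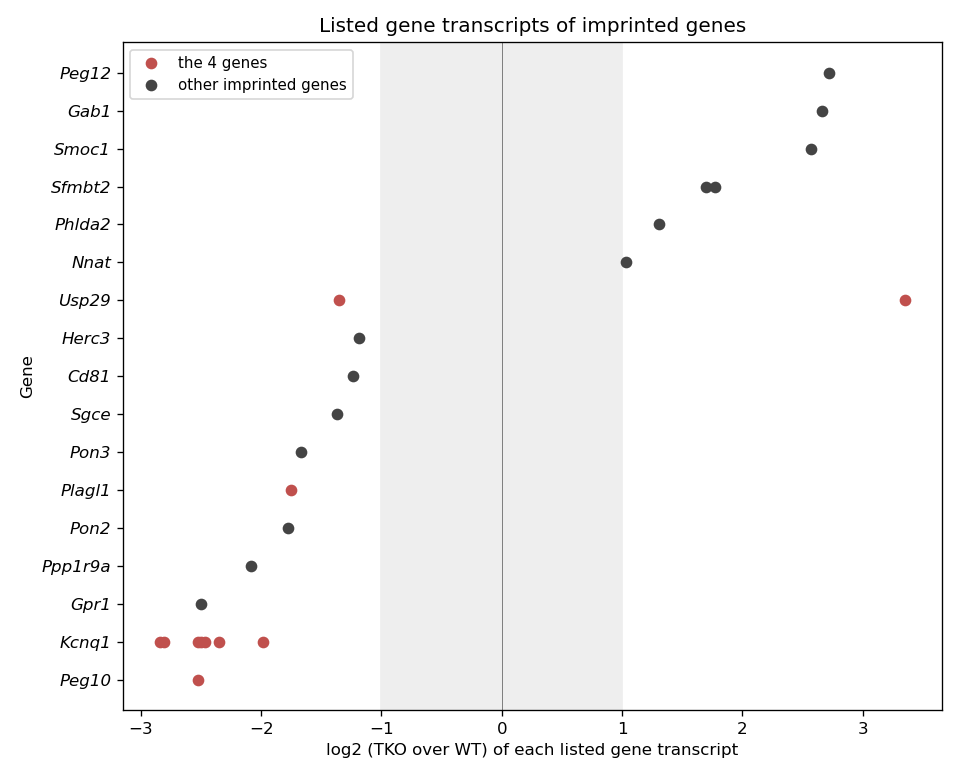
The authors' log2 of each listed gene transcript, read as TKO over WT (x axis), for imprinted genes with at least 1 (y axis, ordered by median); red points are the 4 genes and dark grey points the others. The grey band marks absolute values below 1, which the table does not hold; 11 genes have a lower transcript and 7 a higher one, and Usp29 has both.

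Among 20 regulators of imprints and of KCNQ1 channels that were found, 3 had a listed gene transcript, 2 lower and 1 higher, beside 4.80% and 4.14% of protein-coding names. Dppa3, which protects imprints from demethylation in the early embryo, was higher at 3.01. Ehmt2, a histone H3 lysine methyltransferase, was lower at -1.38, and Dnmt3l, a partner of the de novo DNA methyltransferases, was lower at -1.07. Transcripts of other classes, which 6.90% of protein-coding names had higher, were higher for 3. These were Ezh2 at 1.62, Eed, its partner in a histone methyltransferase complex, at 4.13 and Dppa3 at 4.13. None of Zfp57, Trim28, Dnmt1 or the Kcne genes, whose proteins pair with KCNQ1, had a listed transcript.

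Markers of other cell types also appeared in the table, in both directions. Gene transcripts were lower for 3 of 14 endoderm markers, 2 of 12 trophoblast markers (Krt8 at -2.67, Krt18 at -2.01) and 1 of 15 pluripotency markers (Klf5 at -2.23). They were higher for 3 of 5 neuroectoderm markers (Tubb3 at 2.77, Otx2 at 1.94, Pax6 at 1.52), 1 of 15 pluripotency markers (Dppa3) and 1 of 5 fibroblast markers (Vim at 2.25). Beside these stand the 4.80% lower and 4.14% higher of all protein-coding names. Of 5 mesoderm markers, Gsc was higher at 3.03 and Bmp4 lower at -2.86. Transcripts of other classes, which 6.90% of protein-coding names had higher and 2.24% lower, were higher for 6 pluripotency markers (Sox2, Nanog, Klf4, Klf2, Tbx3, Dppa3), 4 neuroectoderm, 3 trophoblast (Eomes, Hand1, Tfap2c), 2 endoderm (Dab2, Lamb1) and 1 mesoderm marker. They were lower for Klf5 and, in other pieces, Eomes. The table holds no levels, so the labelled cell type could not be checked against its markers. The part of cell type differences in the values of the 4 genes was not tested, and fewer cells of a type cannot be told apart from less RNA per cell.

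Genes split like Kcnq1 went 1 way each. Of 2014 genes with a gene transcript, 331 had several and 36 had 7 or more, Kcnq1 included. In 21 of the 36 all pieces were lower, in 15 all were higher and in 0 they were mixed. Those with most pieces were Thsd4, with 22 all higher, Cdk14, with 21 all lower at a median of -2.44, and Cdh13, with 20 all lower at -2.28. Next came Cpq (14 lower), Sgcd, Slc4a4 and Zmat4 (13 lower each), Slit3 (13 higher), and, tied at 12, Dgki and Rgs6 (higher) and Fhit (lower). Usp29 by contrast was 1 of only 6 genes with gene transcripts in both directions, beside Maml2 (5 lower, 1 higher), Dpp6 (2 and 2), Trim2 (1 lower, 2 higher), Cap2 and Fam167a (1 each way).

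R-loop peaks were then set against these genes. Each library has its own peak list, and the lists differ in length. They held 22336 peaks in WT replicate 1, 6612 in WT replicate 2, 25392 in TKO replicate 1 and 6458 in TKO replicate 2, so list length goes with the replicate number. The control lists held 568 and 582 peaks, and none of them lay within 20 kb of any of the 4 genes. Of 21951 protein-coding genes, 57.2%, 19.4%, 61.6% and 22.9% had a peak on them or within 5 kb in those 4 libraries, in the same order. Each library's depth is unknown, and a gene without a peak is only a gene where none was called.

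In all, 25 peaks lay on the 4 genes or within 5 kb. There were 10 in WT replicate 1, 4 in WT replicate 2, 9 in TKO replicate 1 and 2 in TKO replicate 2. The genotypes overlapped, at 7.00 ± 4.24 (SD, n = 2) in WT and 5.50 ± 4.95 in TKO. The difference of -1.5 peaks was smaller than the spread between replicates (p = 0.67 by a two-sided exact permutation test, which here cannot go below 0.33). Per 10000 peaks of each list the numbers were 4.48 and 6.05 in WT and 3.54 and 3.10 in TKO. Scaled this way the groups did not overlap and differed by -1.94, at the smallest p the design allows (p = 0.33, two-sided exact permutation test). The scaled value of TKO replicate 2 rests on 2 peaks. How often other sets of genes separate like this was not counted, so nothing is read from it. No comparison of 2 libraries against 2 can pass 0.05. Without WT replicate 1 the unscaled difference became 1.5, and without TKO replicate 2 it became 2, so its direction depends on which libraries enter.

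Kcnq1 had 3 peaks in the first replicate of each genotype and 0 in the second, so the genotypes were equal. Of 567 genes as long as 300 kb or more, 90.3% had a peak in the first replicate of WT and 94.0% in that of TKO. In the second replicates the shares were 50.3% and 45.3%. Of 5 regions on Kcnq1, 1 was shared by WT and TKO, in intron 1 at chr7:143124029-143124656, with fold enrichments of 3.32 and 2.86 over the local background. It lay 1559 bp before the first listed piece. The other 4 were called in 1 library each. TKO replicate 1 had 1 at the start of the gene (2.89) and 1 in intron 15 (3.12), and WT replicate 1 had 1 in intron 2 (3.88) and 1 inside Kcnq1ot1 (3.21). In their own lists 93.2%, 82.5%, 46.7% and 87.3% of peaks, in that order, had a higher -log10 q, a stronger call. At a -log10 q of at least 5 the counts at Kcnq1 were 2 and 0 in WT and 0 and 0 in TKO. None of the 5 regions overlapped a listed Kcnq1 piece. Just outside the 5 kb limit, WT replicate 1 had a peak 10379 bp past the gene (fold enrichment 4.05).

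Peg10 was the one gene of the 4 with peaks in every library, 2 in each WT list and 1 in each TKO list (p = 0.33, adjusted p = 0.89 over the 4 genes, two-sided exact permutation test). That p is the smallest the test allows, and how many other genes separate like this was not counted. Genes of 10 to 20 kb had a peak in 58.0% and 19.3% of cases in WT and in 62.4% and 24.4% in TKO. Each WT library had a peak near the start of Peg10, but these were separate regions called in 1 library each. One lay 143 bp upstream of that start, on the first exon of Sgce, in replicate 2 (5.20). The other lay in the Peg10 intron in replicate 1 (3.48), and the 300 bp around its summit held 24 CpG. Of the peaks in the WT replicate 1 list, 62.9% had a higher -log10 q than this one. No TKO library had either region. Of 36105 regions merged over the 4 libraries, 5.22% were called in WT replicate 2 alone and 18.7% in WT replicate 1 alone.

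Plagl1 had 1 and 0 peaks in WT and 2 and 1 in TKO (p = 0.67, adjusted p = 0.89, two-sided exact permutation test), so the counts overlapped. Its upstream start, chr10:13060762-13061450, had a peak in WT replicate 1 (fold enrichment 5.10) and in both TKO libraries (4.06 and 4.72). The main start, where the peak meets the first bases of the lower transcript, had one in TKO replicate 1 alone (4.13). Among genes of 50 to 100 kb, 76.3% and 27.2% had a peak in WT and 81.1% and 31.4% in TKO. The upstream peak lay 29.4 kb before the listed transcript, on a part of the GENCODE gene with no listed RNA. RefSeq starts Plagl1 only at 13090832 and places another gene, Gm40602, over the upstream region, at chr10:13060534-13084708. With the RefSeq span of Plagl1 the counts were 0 and 0 in WT and 1 and 0 in TKO.

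Usp29 had 4 and 2 peaks in WT and 3 and 0 in TKO (p = 0.67, adjusted p = 0.89, two-sided exact permutation test), and the counts overlapped. Genes of 200 to 300 kb had a peak in 88.2% and 39.0% of cases in WT and in 90.0% and 35.5% in TKO. The region called in both WT libraries and no TKO library lies in the first intron of Peg3, upstream of Usp29, at chr7:6728025-6728817, with fold enrichments of 2.77 and 4.76. This part of Peg3 is known for its repeated YY1 motifs, of which the printed stretch holds 2. That stretch is not centred on a summit. The 300 bp around the summit held 0 such motifs in WT replicate 1 and 1 in WT replicate 2. Of all such summit windows, 11.8% held one. Of 36105 merged peak regions, 1.24% had that pattern and 1.21% the reverse, called in both TKO libraries and in no WT library. No region at the 4 genes had the reverse pattern.

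The remaining Usp29 regions were spread along the gene. A pair inside the lower transcript, about 30 and 40 kb from the start, was called in the first replicate of each genotype, at 3.95 in WT and 4.11 in TKO and at 4.24 in WT and 3.61 in TKO. A region 217.7 kb from the start was called in the same 2 libraries (5.12 and 3.70), with 85.7% and 93.7% of the summit windows masked as repeats. A region called in WT replicate 2 alone (4.91) was 100% repeat. The higher Usp29 transcript carried no peak in any library.

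**Figure D4:**
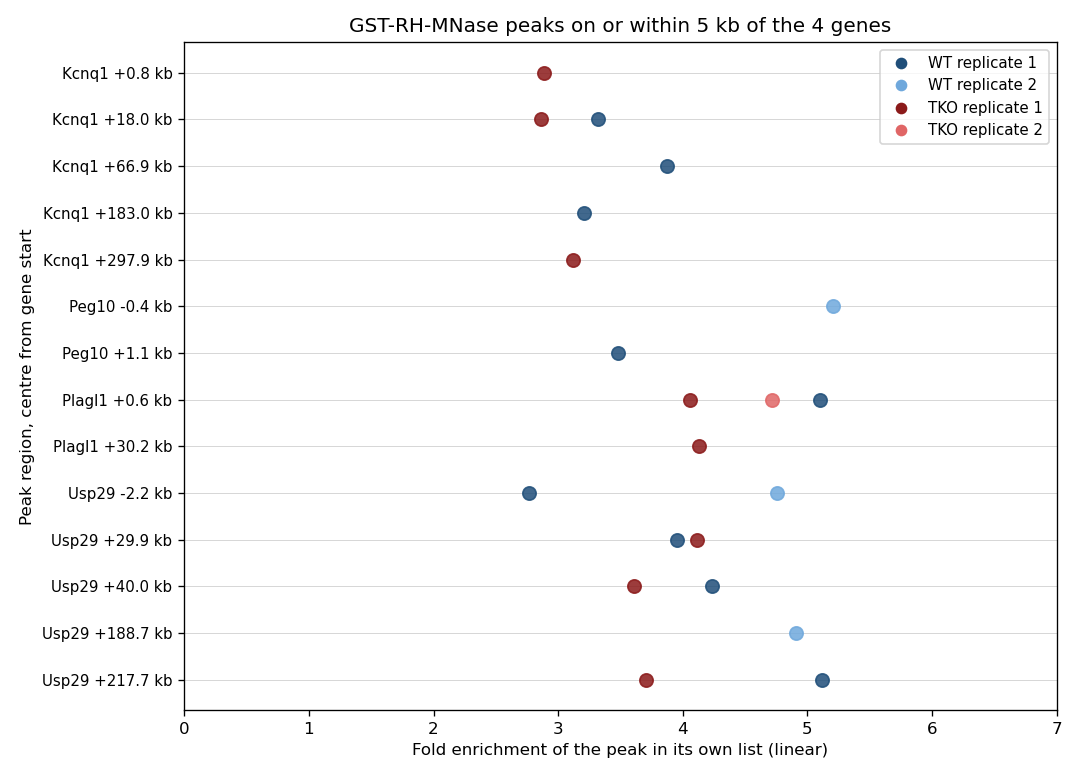
Fold enrichment of each GST-RH-MNase peak over the local background, as the authors' lists give it (x axis, linear), for 14 merged regions on or within 5 kb of the 4 genes (y axis, distance of the region's centre from the gene's start); colours mark the library. The upstream start of Plagl1 has points from 3 libraries, at 4.06 to 5.10, and the region before Usp29 has points from both WT libraries and no TKO library.

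By pattern, 10 of the 15 regions were called in the first replicates only, the longer lists. Called in the first replicate of each genotype and no other library were 4, in WT replicate 1 alone 3 and in TKO replicate 1 alone 3. Over all 36105 regions these patterns made up 25.5%, 18.7% and 27.2%.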

How the data were processed

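cheRNA values came from 1 table that the authors deposited for the whole series, holding a log2 fold change for each of 5723 transcripts, with no p-value and no sample values. Signs were turned as the report describes. The authors' MapR lists, 1 per library, have the layout of MACS2, with the fold enrichment (a ratio), the -log10 p and -log10 q, and a score of each peak. The submitters' processing notes name build mm10 and the tools MACS2, DESeq2, TopHat2, BWA, bedtools and SAMtools. The sources used here give no versions, roles or peak-calling control.

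Genes came from GENCODE M21 and sequences from RefSeq GRCm38.p6, which is the mm10 assembly. Listed transcripts were taken by gene name. Peaks were counted when they overlapped a gene or 5 kb on either side by at least 1 bp. Peak counts of 2 libraries per genotype were tested by exact permutation, two-sided, with Benjamini-Hochberg adjustment over the 4 genes, at 0.05. Calculations used Python 3.11.15, pandas 2.3.3 and scipy 1.17.1, tested on simulated data.

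The 4 genes and all lists were chosen with earlier results of these data known. Named were the listed transcripts of the 4 genes, their peaks with 1 exception, listed members of the gene lists, and about 10 genes most like Kcnq1 or Usp29, ties included. Other transcripts within 1 Mb were named after their values were seen. The exception, 1 peak region, is counted but otherwise not reported here. The shares of all protein-coding names were added after the data were seen. Other assays of the series were not analysed here.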

Additional observations from a re-analysis of the deposited data

How the results depend on the processing

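The difference in peaks over the 4 genes (-1.5, TKO minus WT) was -3 with a -log10 q of at least 5. It was -2 with lists cut to equal length, with 20 kb on both sides and with RefSeq gene spans (added after the data were seen). By summits it was -1.5, and over the gene bodies alone 0. Without peaks in control peaks it was also -1.5, but that setting could not change it. No control peak lay within 20 kb of the 4 genes. Leaving out 1 library gave -5 to 2, with 1.5 without WT replicate 1 and 2 without TKO replicate 2, the reverse of the main direction. With the replicate number as a block it was -1.5 (p = 0.5, exact sign-flip permutation test, the smallest it allows). The labels do not say that numbers pair libraries.

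At Kcnq1 the difference of 0 became -1 at the stricter q, -0.5 with 20 kb, and -1.5 to 1.5 when a library was left out. At Plagl1 the difference of 1 became 0 at equal list length, 0.5 with the RefSeq gene span or at the stricter q, and 0.5 to 1.5 when a library was left out. At Usp29 the difference of -1.5 became -3 to 0, the 0 without TKO replicate 2. At Peg10 the difference stayed between -1 and -0.5, but it rests on few peaks. Over the gene body alone the counts were 1 and 0 in WT and 0 and 0 in TKO. At the stricter q and at equal list length they were 1 and 2 in WT and 1 and 1 in TKO. The share of listed transcripts lower, 92.3%, ran from 83.3% without Kcnq1 to 91.7% among absolute log2 values of at least 1.5. Imprinted genes with a higher transcript went from 7 to 15 when transcripts of any class and strand, named for a gene or lying over it, were counted together. Listed Peg10 transcripts went from 3 to 1 when they had to overlap the gene. The causes were not tested. The peak lists give no depth, so a peak missing from a short list is not shown to be absent from the cells.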
